A study of Homo sapiens with 6 samples.

Results

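The Mediator complex was described here at the level of its transcripts: 29 MED genes together with CDK8 and CCNC, 31 genes in all out of 26475 in the deposited table. The members were taken by name, as the known subunits of Mediator and its kinase pair. RNA sequencing was done in HepG2, a line from a human hepatocellular tumour that still makes many liver proteins. Each of the 2 groups had 3 libraries, made from exponentially growing cells that expressed either enhanced green fluorescent protein (eGFP), a reporter used as the control, or TAF2, which belongs to TFIID, the factor that first recognises core promoters. The labels say neither how eGFP or TAF2 was brought into the cells, nor under which promoter, nor whether the cells were a clone or a pool, nor whether each library had its own culture. The p-values thus measure the spread of these 6 libraries and nothing wider, and that spread may be technical. In bulk RNA, fewer cells that express a gene and less RNA per cell cannot be told apart.

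Mediator is a large coactivator that carries signals from DNA-bound activators to RNA polymerase II at the promoter, where it meets TFIID and the other general factors. Its head and middle modules contact the polymerase, MED14 forms the scaffold along which the modules are joined, and the tail is the main landing site for activators. A kinase module of CDK8 (or its paralog CDK19), cyclin C, MED12 and MED13 (or their paralogs MED12L and MED13L) binds the core reversibly and blocks its access to the polymerase. In liver, MED1 is known as a partner of nuclear receptors and MED15 as a partner of the sterol-sensing SREBP factors.

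Total counts ran from 22276298 to 28024001 per library. The hepatocyte genes ALB, APOA1, AFP and SERPINA1 stood at 1104 CPM (counts scaled to the library total) or more in every library and TTR at 62.1 CPM or more. The blood cell marker PTPRC was at 0 counts in the 6 libraries, while CD68 and ACTA2, also checked as markers of other cells, lay between 34.7 and 50.4 CPM. TAF2 itself, the check of the labels, was 28.1% higher in the TAF2 group (48.6 ± 1.37 against 37.9 ± 2.31 CPM; SD, n = 3 each) with no overlap between groups.

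Mediator transcripts moved little with TAF2. All 31 members passed the filter on low counts, with 100 (MED31) to 4638 (MED1) counts in a library, so all were tested. At an adjusted p of 0.05 in edgeR's quasi-likelihood test, 6 members rose (MED9, MED10, MED14, MED15, MED24 and MED27), 6 fell (MED13, MED17, MED19, MED20, MED22 and MED28) and 19 were not past the threshold. That is 38.7% of the members, against 43.0% of the 12902 genes tested, and so a share near that of the table. Over all tested genes 20.6% were called higher and 22.4% lower. At an unadjusted p of 0.05, 7 members were higher and 7 lower, beside 49.6% of all tested genes in either direction.

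The sizes were small. The log2 fold changes of the members ran from -0.36 to 0.24, with a median of 0.02 beside -0.0027 over all tested genes. The median absolute log2 fold change was 0.17 among the called members and 0.23 among the called genes of the table. Called or not, the median was 0.1 for the members and 0.13 for all tested genes. For tested genes within the CPM range of the members it was 0.11, close to that of the members. Of the 31 members, 21 differed by less than 10% between the group means. The median coefficient of variation between libraries of a group was 2.57% for eGFP and 3.16% for TAF2, which is what allowed changes of this size to be called. Tested in edgeR against a 1.2-fold change in place of no change, 0 of 31 members were called at the adjusted threshold, while 9.63% of all tested genes were. At an unadjusted p of 0.05 in the same test, 0 members passed, while 692 of 12902 genes were higher and 1172 lower.

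**Figure D1:**
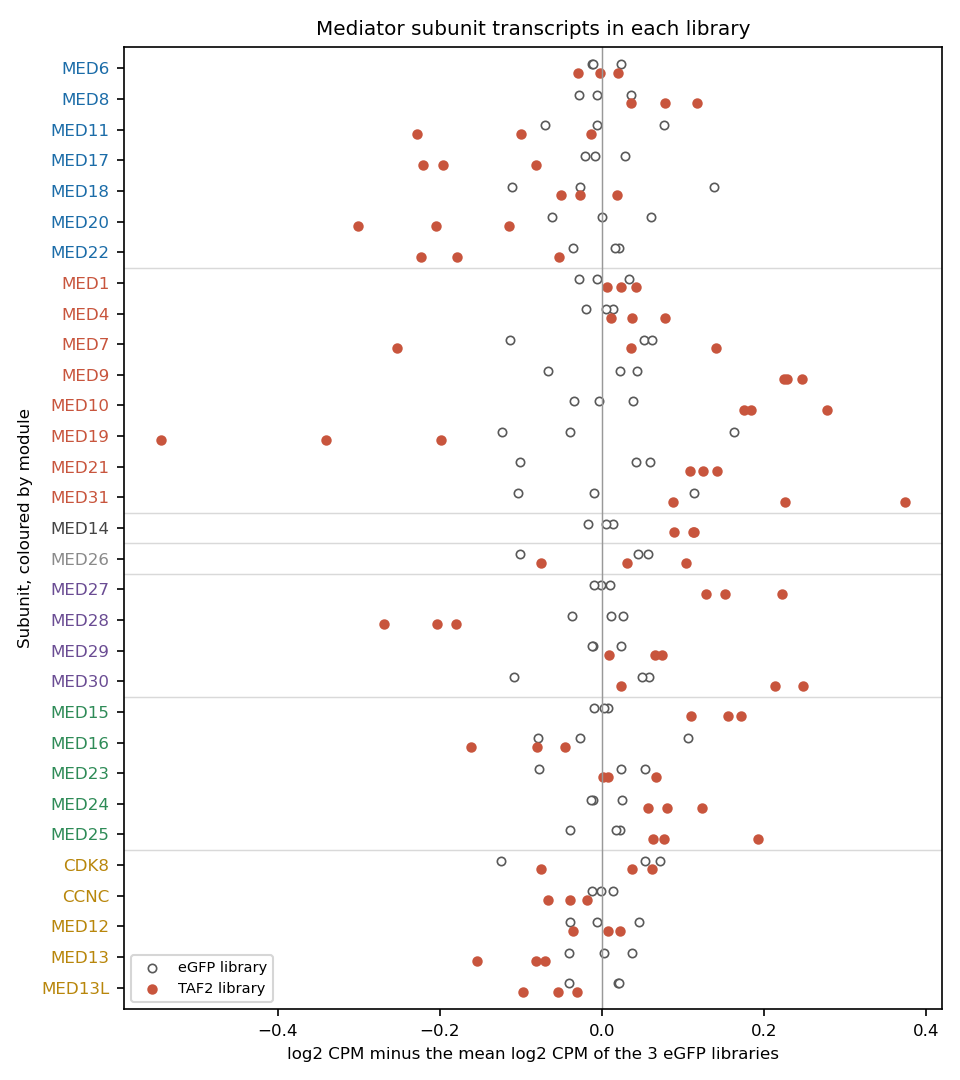
Level of each Mediator subunit transcript in each library, as log2 CPM minus the mean log2 CPM of the 3 eGFP libraries (x axis), with 1 row per subunit, names coloured by module, open points for eGFP and filled points for TAF2 libraries. Most filled points lie close to the open ones; the filled points of MED9 and MED10 are all to the right, and those of MED20, MED28 and MED19 all to the left.

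Of the 12 called members, 5 were called under each of 14 other fits that test against no change: MED9 and MED15 higher, MED17, MED20 and MED28 lower. DESeq2, which called 29.6% of 13832 genes, called those 5 members and no others. The remaining 7 calls each depended on the tool or on a library, as given below with each gene. In 16 members (51.6%) the 3 TAF2 libraries did not overlap the 3 eGFP libraries, against 50.6% of all tested genes.

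Module averages went in both directions. As the mean log2 level of a module's genes relative to the eGFP mean, the head was at -0.022 to 0.038 in the eGFP libraries and -0.097 to -0.073 in the TAF2 libraries, and the kinase module at -0.015 to 0.023 and -0.055 to -0.024. The middle module was at -0.026 to 0.027 and 0.045 to 0.084, the tail at -0.02 to 0.021 and 0.05 to 0.062, and the genes between head and tail at -0.031 to 0.016 and 0.018 to 0.058. With this scaling the groups did not overlap in any of these 5 averages, lower with TAF2 in the head and kinase modules and higher in the other 3. The gap was narrow for the genes between head and tail (0.016 to 0.018) and for the kinase module (-0.015 to -0.024). The median log2 fold change of all tested genes was -0.003 here and 0.011 with upper-quartile scaling. It was -0.015 with scaling from genes outside chromosomes 4 and 11. A shift of that size could close either gap, and the averages were not remade with other scalings. Over all 31 members the difference was 0.01 and the libraries overlapped. These averages were not tested, and no share for averages of other genes was taken to set beside them. Of single tested genes, 50.6% already had groups that did not overlap.

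Among the head subunits, which sit against the polymerase, 3 of 7 fell, a share of 42.9%. Of all tested genes, 22.4% were called lower and 43.0% in either direction. The edgeR test called 0 head subunits higher, also at an unadjusted p of 0.05, and so did DESeq2 and limma voom. Over all 12902 tested genes, edgeR called 20.6% higher, and 3103 were higher at an unadjusted p of 0.05. MED17, a central head subunit, is on chromosome 11 (GRCh38.p14, 93784282 to 93814963). It held 47.1, 48.3 and 46.7 CPM in the eGFP libraries and 44.8, 40.6 and 41.3 CPM in the TAF2 libraries, so every TAF2 library was below every eGFP library. Its log2 fold change was -0.17 (SE 0.0442, adjusted p = 0.00211 in edgeR).

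MED20, which pairs with MED18 in the movable part of the head, lies on chromosome 6 (41905354 to 41921139). Its levels were 42.9, 41.1 and 39.4 CPM with eGFP and 33.4, 35.7 and 38.0 CPM with TAF2, without overlap. The mean fell by 13.3%, with a log2 fold change of -0.20 (SE 0.0490, adjusted p = 0.00067 in edgeR). The annotated span of MED20 overlaps that of BYSL, a ribosome biogenesis gene at 59.1 to 66.4 CPM that rose (0.10). The sources do not say whether counting used strand, so reads from the shared stretch could have been given to either gene.

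MED22 went from 45.0, 44.8 and 43.2 CPM to 38.0, 39.2 and 42.7 CPM (log2 fold change -0.15, SE 0.0461, adjusted p = 0.00842 in edgeR). The highest TAF2 library lay just under the lowest eGFP library. Its call was lost without TAF2 replicate 1 (edgeR adjusted p = 0.0837), without TAF2 replicate 2 (0.0522) and in DESeq2 (0.0738), and over the 14 alternatives the adjusted p ran from 0.00179 to 0.0837. The other head subunits MED6, MED8, MED11 and MED18 had log2 fold changes from -0.12 (MED11) to 0.08 (MED8) and were not past the threshold. MED11 shares part of its span with CXCL16, a chemokine gene at 71.4 to 82.8 CPM that fell (-0.11), so its own value is uncertain.

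In the middle module 2 of 8 members rose and 1 fell (37.5% called, beside 43.0% of all tested genes). This module held both the largest rise and the largest fall of the called members. MED9 (chromosome 17, 17477000 to 17493221) was at 18.8, 19.1 and 17.7 CPM in eGFP and at 21.7, 22.02 and 21.7 CPM in TAF2 libraries. The 3 TAF2 libraries were almost alike and all above the control range. The rise was 17.5%, a log2 fold change of 0.23 (SE 0.0605, adjusted p = 0.00157 in edgeR).

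MED10, a small subunit of the middle module's hook, rose from 16.5, 15.7 and 16.04 CPM to 18.2, 19.5 and 18.3 CPM (0.21, SE 0.0655, adjusted p = 0.00789 in edgeR), again without overlap. Without TAF2 replicate 2 its adjusted p was 0.0521 and in DESeq2 it was 0.0600, within a range of 0.00457 to 0.0600 over the alternatives.

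MED19, another hook subunit, was among the least abundant members. It was at 7.30, 7.74 and 8.90 CPM with eGFP and at 6.93, 5.46 and 6.28 CPM with TAF2. The groups did not overlap, but the highest TAF2 library came close to the lowest eGFP library. The log2 fold change was -0.36 (SE 0.108, adjusted p = 0.00612 in edgeR), the largest of the called members in size, and 29.7% of the called genes of the table changed by more. Without eGFP replicate 3 it was -0.27 (edgeR adjusted p = 0.0818), without TAF2 replicate 2 it was -0.27 (0.0607), and in DESeq2 the adjusted p was 0.0603 (range over the alternatives 0.00266 to 0.0818).

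Of the other middle subunits, MED31 had a log2 fold change as large as that of MED9 (0.24) but was not called. It was the least abundant member, at 3.87, 4.50 and 4.13 CPM against 4.42, 4.87 and 5.39 CPM, and the groups overlapped. Its 95% confidence interval ran from -0.02 to 0.50 (edgeR adjusted p = 0.13), so a rise of up to 1.41-fold could not be told from no change at this depth. MED31 overlaps TXNDC17, a gene at 32.2 to 37.7 CPM that fell (-0.12). MED1, the contact of nuclear receptors and the member with the highest CPM, was at 162, 167 and 159.7 CPM with eGFP and 168, 164 and 166 CPM with TAF2, and its interval of -0.03 to 0.08 leaves room only for small changes. MED4, MED7 and MED21 had log2 fold changes of 0.04, -0.02 and 0.13.

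MED14, the scaffold, encoded on the X chromosome, rose by 7.57%. It was at 58.0, 56.8 and 57.7 CPM with eGFP and at 61.1, 62.2 and 62.2 CPM with TAF2, and these ranges did not meet. The log2 fold change of 0.10 (SE 0.0375, adjusted p = 0.0212 in edgeR) was no longer called without TAF2 replicate 2 (edgeR adjusted p = 0.0579), without TAF2 replicate 3 (0.0564) or in DESeq2 (0.0873), over a range of 0.00954 to 0.0873. MED26, which joins the polymerase-bound form of Mediator and recruits elongation factors, stood at 9.92 to 11.1 CPM in eGFP and 10.1 to 11.4 CPM in TAF2 libraries, with a log2 fold change of 0.02 (95% confidence interval -0.15 to 0.19).

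Among MED27 to MED30, found between head and tail, 1 of 4 rose and 1 fell. The edgeR test called 43.0% of all tested genes, 20.6% higher and 22.4% lower. Calls in both directions are thus not particular to these subunits. MED28 (chromosome 4, 17614641 to 17634105) had the smallest p of all members. It was at 62.3, 65.1 and 64.4 CPM with eGFP and 53.1, 55.5 and 56.4 CPM with TAF2, a clear gap in each library, and fell by 0.22 on the log2 scale (SE 0.0387, adjusted p = 1.31e-05 in edgeR).

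MED27 rose from 17.1, 17.1 and 17.3 CPM to 20.0, 18.8 and 19.1 CPM (0.17, SE 0.0633, adjusted p = 0.0300 in edgeR). All TAF2 libraries were above the narrow eGFP range. The call was nonetheless the least stable of the members. Of the eGFP libraries, leaving out replicate 1 (edgeR adjusted p = 0.0575), replicate 2 (0.0505) or replicate 3 (0.0567) ended it. So did leaving out TAF2 replicate 1 (edgeR adjusted p = 0.103) or TAF2 replicate 3 (0.0535), and so did DESeq2 (0.14), with a range of 0.018 to 0.14. MED29 and MED30 had log2 fold changes of 0.05 and 0.16 and were not past the threshold.

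Of the 5 tail subunits, 2 rose (40.0%), beside 20.6% of all tested genes called higher and 22.4% called lower. In edgeR 0 tail subunits fell at the adjusted threshold (1, MED16, at an unadjusted p of 0.05), and 0 fell with DESeq2 or limma voom. MED15, the partner of SREBP factors, was at 79.7, 79.5 and 78.7 CPM with eGFP and 88.3, 89.3 and 85.6 CPM with TAF2. The gap between the groups was larger than the spread within either. It lies on chromosome 22 (20507610 to 20587619) and its log2 fold change was 0.15 (SE 0.0330, adjusted p = 0.000365 in edgeR). MED24 went from 106, 106 and 108 CPM to 111, 116 and 113 CPM (0.09, SE 0.0296, adjusted p = 0.0161 in edgeR), and its call was lost without TAF2 replicate 2 (0.102) and in DESeq2 (0.0654; range 0.00604 to 0.102).

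MED25, a tail subunit bound by several activators, lay at the threshold. It was at 38.5, 38.3 and 36.8 CPM in eGFP and 43.3, 39.6 and 39.9 CPM in TAF2 libraries, without overlap, with a log2 fold change of 0.11 and an edgeR adjusted p of 0.0511. It was called higher in 5 of the 14 alternatives, among them the fits without eGFP replicate 2 (0.0493) and without TAF2 replicate 2 (0.0380; range 0.0267 to 0.244). MED16 (-0.10) was called lower only without eGFP replicate 1 (edgeR adjusted p = 0.0304, range 0.0304 to 0.548), and MED23 was at 0.02.

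**Figure D2:**
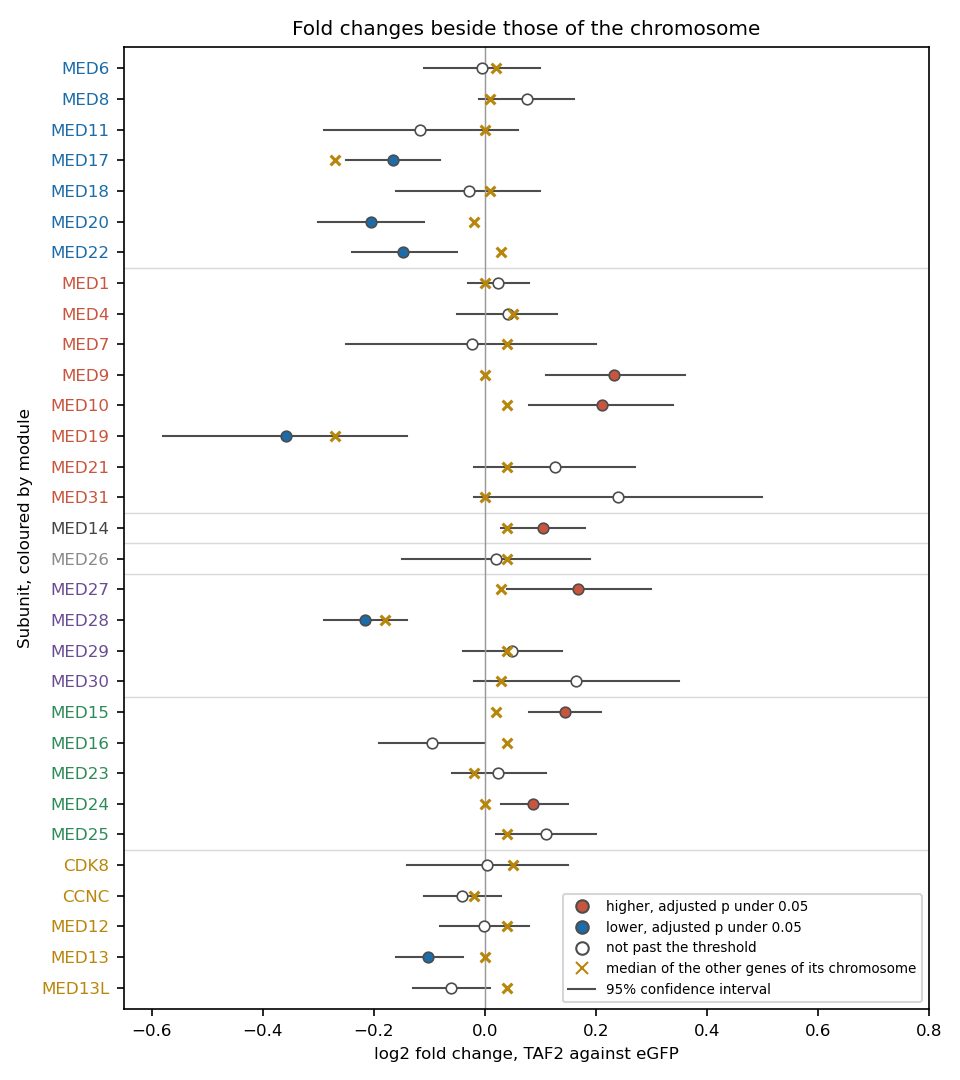
Log2 fold change of each Mediator subunit, TAF2 against eGFP (x axis, points with 95% confidence intervals from edgeR), with 1 row per subunit and the median log2 fold change of the other genes of its chromosome (at least 5 CPM) as a cross. Filled points mark the 6 higher and 6 lower members past the adjusted threshold; the intervals of MED19 and MED28 take in the crosses of chromosomes 11 and 4, MED17 lies to the right of its cross, and MED20 and MED22 lie to the left of theirs.

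In the kinase module 1 of 5 members fell (20.0%), beside 22.4% of all tested genes called lower and 20.6% called higher. Of the 12902 tested genes, 3103 were higher at an unadjusted p of 0.05 in edgeR. In edgeR 0 members of this module rose, also at an unadjusted p of 0.05, and 0 rose with DESeq2 or limma voom. CDK8, its catalytic subunit, was at 15.8, 13.99 and 16.04 CPM with eGFP and 15.6, 14.5 and 15.9 CPM with TAF2, and the ranges lay on each other. Its log2 fold change was 0.0032, with a 95% confidence interval of -0.14 to 0.15. Cyclin C, CCNC, which activates CDK8, held 72.9, 73.5 and 74.3 CPM and then 70.2, 71.5 and 72.6 CPM. Its groups did not overlap, but the difference of -0.04 (interval -0.11 to 0.03) was not past the threshold.

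MED12, which links CDK8 to the module and activates it, was level at 59.2, 60.6 and 62.8 CPM against 61.8, 59.4 and 61.2 CPM (log2 fold change -0.0019, interval -0.08 to 0.08). MED13, the subunit that docks the module on the core, was the member that fell. It went from 114, 117 and 111 CPM to 108, 108 and 102 CPM, a mean that fell by 6.81% without overlap (log2 fold change -0.10, SE 0.0307, adjusted p = 0.00627 in edgeR). Without eGFP replicate 2 the adjusted p was 0.0560, without TAF2 replicate 3 it was 0.0835 and in DESeq2 it was 0.0574 (range 0.00248 to 0.0835). Its paralog MED13L was at 78.8, 82.2 and 82.4 CPM against 79.5, 78.1 and 75.8 CPM, overlapping, with -0.06 (interval -0.13 to 0.01).

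The kinase module has 2 further paralogs that are not among the 31 members, CDK19 and MED12L. CDK19 was at 23.8, 24.1 and 23.8 CPM with eGFP and 24.8, 26.7 and 26.1 CPM with TAF2, with no overlap and a log2 fold change of 0.11 (edgeR adjusted p = 0.0891). It was called only without TAF2 replicate 1 (0.0485, range 0.0485 to 0.264). The annotated span of CDK19 overlaps that of AMD1, a gene at 159 to 173 CPM (log2 fold change 0.05), so the value of CDK19 is uncertain.

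MED12L, the paralog of MED12, differed most among the 31 members and these paralogs, at a very low level. It had 7, 8 and 6 counts in the eGFP libraries and 39, 26 and 46 in the TAF2 libraries, or 0.258, 0.360 and 0.241 CPM against 1.58, 1.02 and 1.64 CPM. Every TAF2 library was well above every eGFP library. It passed the filter on low counts only through its TAF2 libraries, so a p-value after that filter is not given. With no filter its log2 fold change was 2.31 (adjusted p = 3.82e-10 in edgeR), and over the 14 alternatives it ran from 2.18 to 2.49. The summed counts of 111 against 21 gave a 5.04-fold ratio. The exact 95% interval of that ratio, 3.14 to 8.46, covers counting error only. The span of MED12L (chromosome 3, 151085664 to 151436653) overlaps that of IGSF10, which was at 0.0405 CPM or less in the 6 libraries. Per kilobase of transcript, MED12L reached 0.132 CPM in TAF2 libraries, against 8.95 CPM for MED12.

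**Figure D3:**
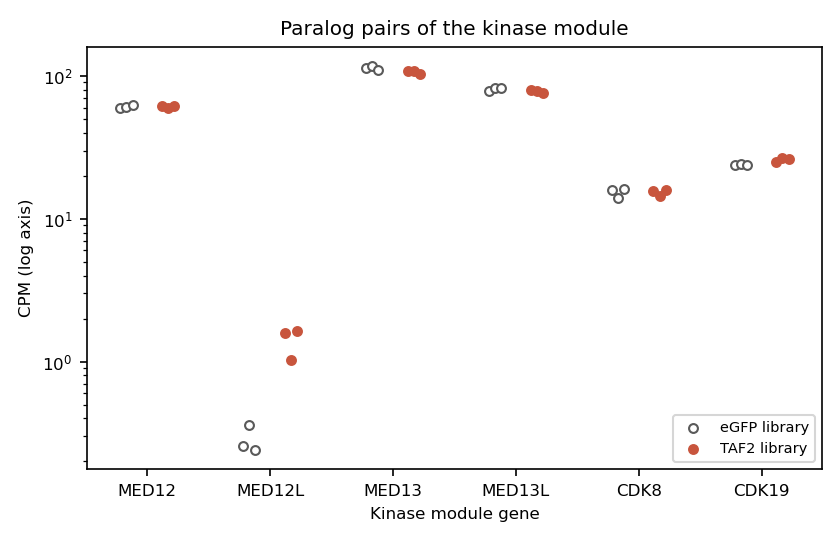
CPM on a log axis (y) of the paralog pairs of the kinase module in each library (x, by gene), open points for eGFP and filled for TAF2. MED12L goes from at most 0.360 CPM to at least 1.02 CPM, while the points of MED12, CDK8 and MED13L overlap between the groups.

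Ratios of paralogs inside a library do not depend on the scaling between libraries. The log2 ratio of MED13 to MED13L counts was 0.53, 0.51 and 0.43 in eGFP and 0.44, 0.47 and 0.43 in TAF2 libraries, a difference of -0.04 (exact two-sided permutation p = 0.4, adjusted 0.4 over the 2 ratios tested). That of CDK8 to CDK19 was -0.59, -0.79 and -0.57 against -0.67, -0.88 and -0.71, a difference of -0.11 (exact two-sided permutation p = 0.3, adjusted 0.4). With 3 libraries against 3 this test cannot go below 0.1. The log2 ratio of MED12 to MED12L counts fell from a mean of 7.76 to 5.46 and was not tested, since MED12L had fewer than 10 counts in each eGFP library.

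Where a member lies on the genome went with part of these differences. The median log2 fold change of the other genes of at least 5 CPM was -0.27 on chromosome 11 (591 genes) and -0.18 on chromosome 4 (354 genes). All 3 members there, MED17, MED19 and MED28, fell. Set against their own chromosome, MED28 stood at -0.04 and MED19 at -0.09, each about the size of or less than its replicate SD on the log2 scale (0.0399 and 0.161), and MED17 at 0.10, above the other genes of chromosome 11. The part that these chromosomes play in the 3 falls was not tested.

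On the other 12 chromosomes that hold members, 6 of 28 members rose and 3 fell. Of all tested genes, 20.6% were called higher and 22.4% lower. On these 12 chromosomes the medians lay between -0.02 and 0.05. MED20 stood -0.18 below the median of chromosome 6 and MED22 -0.18 below that of chromosome 9, while MED27, on the same chromosome as MED22, stood 0.13 above it. MED9 stood 0.23 above chromosome 17, where MED24 stood 0.08 above and MED13 -0.11 below. MED12L stood 2.31 above the median of chromosome 3. Called members of the same chromosome thus differed in sign on chromosomes 9 and 17.

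Neighbouring start sites were compared for the 23 members with an entry in a RefSeq promoter table (GRCh38.p14). Of these, 3 had a tested gene starting on the opposite strand within 1000 bases. MED19 starts 378 bases from TMX2, a thioredoxin-like membrane protein gene, which also fell (-0.29, SE 0.0303, adjusted p = 1.37e-10 in edgeR). Both lie on chromosome 11, where the median log2 fold change was -0.27, so a fall shared by these neighbours is not particular to them. MED20 and BYSL, 556 bases apart, went in opposite directions, and MED29 and PAF1 (272 bases) had 0.05 and 0.07, neither past the threshold.

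The sequences just before the start site are shown for MED19, the called member with the largest fall, for MED15, a rise called in each of the 14 alternatives that test against no change, and for the paralogs MED12, which was level, and MED12L, which rose. Each line gives the 100 bases before the start from that RefSeq table, 5′ to 3′ on the gene's strand, with matches to the searched motifs in capitals.
MED19 (chr11:57712216-57712315, minus strand): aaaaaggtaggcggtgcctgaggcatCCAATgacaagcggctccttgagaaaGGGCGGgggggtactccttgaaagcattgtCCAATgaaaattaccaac
MED15 (chr22:20507510-20507609, plus strand): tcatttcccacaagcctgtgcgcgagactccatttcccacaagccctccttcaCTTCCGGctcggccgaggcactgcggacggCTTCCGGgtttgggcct
MED12 (chrX:71118496-71118595, plus strand): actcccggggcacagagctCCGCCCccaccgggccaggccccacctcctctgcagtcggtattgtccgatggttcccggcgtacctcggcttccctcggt
MED12L (chr3:151085564-151085663, plus strand): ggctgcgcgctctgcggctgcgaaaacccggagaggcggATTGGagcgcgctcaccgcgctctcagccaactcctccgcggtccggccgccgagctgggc

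Over the 250 bases before the start and on both strands, the GC box GGGCGG was found in 14 of 23 members (60.9%) and in 42.3% of 27305 gene promoters, and the ETS motif CCGGAAG in 5 (21.7%, against 8.82%). The CCAAT box letters CCAAT were in 8 (34.8%, against 33.0%), the TATA box letters TATAAA in 2, MED7 and MED16 (8.70%, against 11.1%), the YY1 motif in 2, MED18 and MED25 (8.70%, against 0.256%), and the cyclic AMP response element TGACGTCA in 1, MED18 (4.35%, against 1.77%). The 27305 promoters were not limited to tested genes, whereas all members were tested, so the shares are not matched for expression. None of the motifs holds the letters of another. Among the 5 promoters with the ETS motif, MED15 rose, MED17 fell, and MED7, MED18 and MED31 were not past the threshold.

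Levels of different members can be compared only per length. In CPM per kilobase of the longest matched transcript, eGFP libraries had the highest levels for MED24 (30.7 ± 0.456), CCNC (29.7 ± 0.266) and MED1 (27.9 ± 0.610), and the lowest for MED26 (3.36 ± 0.201), MED7 (2.71 ± 0.182) and MED31 (2.52 ± 0.190; SD, n = 3). MED8 and MED15 (24.2 ± 0.546 and 23.7 ± 0.147) were within their combined spread of each other, as were MED11 and MED6 (13.6 ± 0.696 and 13.5 ± 0.195) and MED7 and MED31. The scaffold MED14 was at 7.1997 ± 0.0797. CDK8 (5.003 ± 0.368) was above CDK19 (3.83 ± 0.0289) and MED13 (10.9 ± 0.292) above MED13L (5.55 ± 0.136).

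This order depends on which transcript is expressed, since a level is divided by its length. With the shortest matched transcript, CCNC came first at 71.1 and MED20 second at 44.1 CPM per kilobase. MED31 was the lowest member by either length. Between the groups the order changed little: MED24 was again highest with TAF2 (32.6 ± 0.767) and MED7 lowest (2.68 ± 0.367), within the spread of MED31 (2.96 ± 0.294).

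**Figure D4:**
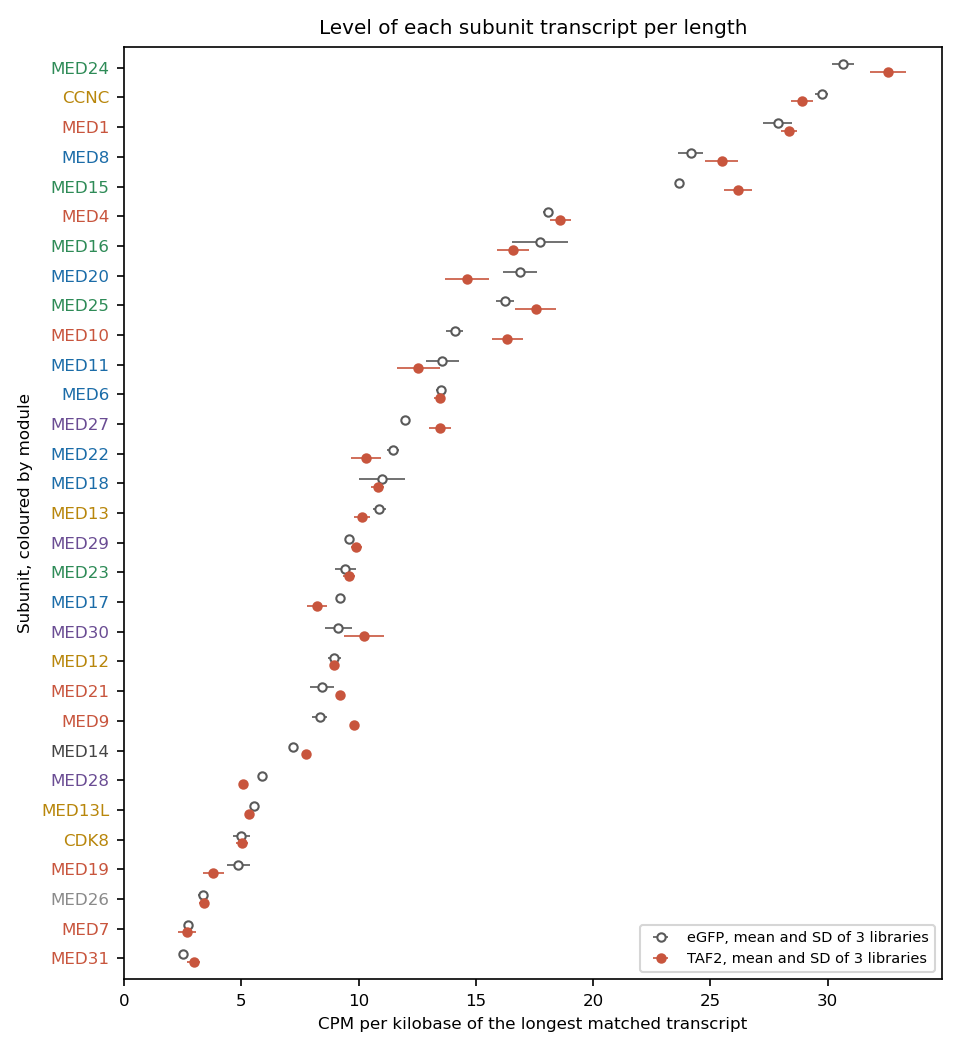
Level of each Mediator subunit transcript in CPM per kilobase of its longest matched transcript (x axis, mean and SD of 3 libraries), with 1 row per subunit in the order of the eGFP level, open points for eGFP and filled for TAF2. Levels run from 30.7 (MED24) to 2.52 (MED31) in eGFP libraries, and the groups differ far less than the subunits do.

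Genes that work with Mediator were counted by lists. Beside them, 43.0% of all tested genes were called in edgeR, 20.6% higher and 22.4% lower. At an unadjusted p of 0.05 in edgeR, 3301 of the 12902 tested genes were lower. Of 12 RNA polymerase II subunits 1 rose and 4 fell (41.7% called, median log2 fold change -0.03), with POLR2G (-0.36) and POLR2L (-0.25) lower, both on chromosome 11, and POLR2J (0.23) higher. The count of rises was 2 without eGFP replicate 1 or TAF2 replicate 2. Of 15 TFIID subunits other than TAF2, 4 rose and 3 fell (46.7%, median 0.07), among them TAF4 (0.21) higher and TAF10 (-0.32), on chromosome 11, and TAF9 (-0.16) lower. The 4 rises became 2 in DESeq2 and 2 without eGFP replicate 1. Of 14 elongation factors linked to MED26, 2 rose and 1 fell (21.4%, median 0.02): MLLT1 (0.28) and ELL2 (0.08) were higher and AFF1 (-0.35), on chromosome 4, lower. The count of falls was 2 without eGFP replicate 2 or TAF2 replicate 1, and with scaling from genes outside chromosomes 4 and 11. In cohesin and its loader, which join Mediator at enhancer loops, 2 of 7 rose (28.6%, median 0.02), RAD21 (0.14) and SMC1A (0.07), and 0 fell in edgeR, also at an unadjusted p of 0.05 and with DESeq2 or limma voom. Only 1 of 7 was called higher in DESeq2, with scaling from genes outside chromosomes 4 and 11, and without eGFP replicate 1 or 3 or TAF2 replicate 1 or 3.

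Of 17 activators known to contact Mediator, 6 rose and 6 fell (70.6% called, against the 43.0% of all genes; median 0.03), and DESeq2 called 2 higher and 6 lower. Without eGFP replicate 2 or TAF2 replicate 1 the edgeR test called 3 higher and 6 lower. This list, like the others, was drawn up with earlier results of these data known. The smallest p-values were those of the fatty acid receptor PPARA (-0.47), the thyroid hormone receptor THRB (-0.38) and the hepatocyte factor HNF4A (-0.18), all lower. MED1, the subunit that nuclear receptors contact, was not past the threshold.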

How the data were processed

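RNA was measured in 6 libraries, 3 per group, made per the labels' protocols with an Illumina TruSeq kit and sequenced on a HiSeq3000. The authors deposited expected counts per gene, not normalized, of which 4.29% were not whole; among the members only MED25 and MED27 had such values. Per the submitters' processing notes, RSEM and hg38 were used. For the aligner, annotation release and strand setting the entry is: not given in the sources used here. All 6 value columns were matched by name, and 0 were left unused.

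Counts were rounded, filtered (filterByExpr), scaled by TMM and tested in edgeR 4.0.16 (R 4.3.3; glmQLFit, robust, and glmQLFTest, group only), with Benjamini-Hochberg adjustment over 12902 genes. DESeq2 1.42.0 and limma 3.58.1 (voom) were alternatives, with other scalings, filters, the replicate number as a block and each library left out. The test was run on simulated data. Genes were placed on GRCh38.p14 by transcript accession; transcript lengths came from GENCODE. Depth limits the precision of members with few counts.

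Members and lists were chosen with earlier results of these data known. All members are accounted for; called and kinase module members are named with values, and other lists by up to 3 called genes of smallest p.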

Additional observations from a re-analysis of the deposited data

How the results depend on the processing

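The 12 called members kept their sign in every alternative. With the replicate number as a block 6 members were called higher and 6 lower, as without it, and 2489 and 2761 genes over the whole table in place of 2662 and 2886. The block left 1 of 7 cohesin genes called higher in place of 2. Libraries of the same number did not deviate together (correlations of -0.0446, -0.0905 and -0.103). Between libraries of different numbers the correlations ran from 0.00935 to 0.0833. Such values cannot say whether libraries of the same number were made together, and the labels do not state it. DESeq2 called 2 members higher and 3 lower. The test against a 1.2-fold change called 0 and 0 members, and 467 genes higher and 776 lower in the table. Leaving out a library in turn gave 4 to 6 members higher and 4 to 7 lower, and over all genes 2282 to 2631 higher and 2518 to 2699 lower. The median log2 fold change of the members was 0.034 with upper-quartile scaling, 0.008 with TMM factors from genes outside chromosomes 4 and 11, and from -0.004 to 0.036 with a library left out. The cause of these moves was not tested.

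Members near 0 changed sign without being called. MED12 was at 0.0021 with DESeq2 size factors in edgeR, 0.01 with upper-quartile scaling, 0.0085 with no filter on low counts and 0.0027 in DESeq2. MED6 was at 0.009 with upper-quartile scaling, 0.0056 with no filter and 0.0003 in DESeq2, and CDK8 at -0.0086 with TMM factors from outside chromosomes 4 and 11. With a library left out the log2 fold change ran from -0.01 to 0.01 for MED6, -0.1 to 0.09 for MED7, -0.02 to 0.02 for MED12, -0.07 to 0.05 for MED18, -0.0068 to 0.05 for MED23, -0.03 to 0.07 for MED26 and -0.05 to 0.05 for CDK8.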
